A study of Mus musculus with 8 samples.

Results

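The transcripts described here are those of 3 thin filament genes of the heart muscle cell, Tnnt2, Tpm1 and Actc1, in an iCLIP map of the RNA-binding protein SRSF3. They were chosen by name and position, as 3 strand-specific intervals of the mm9 mouse genome out of 237938 windows of 10 kb per strand that held a cDNA in either replicate. Tnnt2 was taken as chr1:137732000-137750000 on the plus strand, Tpm1 as chr9:66870000-66898000 on the minus strand and Actc1 as chr2:113872500-113879500 on the minus strand.

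The series holds 8 mouse samples, of which 2 are iCLIP replicates of SRSF3-GFP. The other 6 are hearts of adult C57BL/6 mice, 3 of SRSF3flox/flox;alphaMHC-CreERT2 animals and 3 of alphaMHC-CreERT2 animals, all given 4-hydroxytamoxifen, and they are not analysed here. The iCLIP cells were cardiomyocytes of C57BL/6 pups at P0-1, grown in dishes, and they carried SRSF3 joined to green fluorescent protein from a transfected modified mRNA (15 µg). They were irradiated with UV light 48 h after transfection, and RNA bound to the tagged protein was precipitated through the tag. The tagged protein came on top of the SRSF3 the cells make themselves, and no control precipitation was analysed here. Nothing in the labels ties the replicates to separate cultures, so any p-value between them measures only how these libraries differ. Replicate 1 held 815414 cDNAs and replicate 2 held 2253688, which is 2.76 times as many. The headers of both tracks carry the same library identifier and the same replicate number, so the numbers used here are those of the sample labels.

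iCLIP reads the place where reverse transcription stopped, next to the nucleotide that was crosslinked to the protein. SRSF3 is a small SR protein, a family that binds RNA and acts in splicing and in mRNA export. The thin filament is the actin side of the sarcomere: actin forms the filament, tropomyosin lies along it, and the troponin complex moves tropomyosin when calcium binds, which lets myosin heads attach. Tnnt2 encodes cardiac troponin T, the subunit that holds the troponin complex on tropomyosin, and its pre-mRNA is alternatively spliced as the heart matures. Tpm1 encodes alpha-tropomyosin and is known for alternative promoters, mutually exclusive exons and alternative 3′ ends. Actc1 encodes cardiac alpha-actin, the main actin of the heart muscle cell.

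All 3 genes belong to families with close relatives, so the share of their exonic sequence that a short read could not place was looked at first. Of the distinct 30 nt words in their annotated transcripts (GENCODE M21, GRCm38), 0.150% in Tnnt2, 0.164% in Tpm1 and 1.01% in Actc1 also occurred in a transcript of another gene, counting either strand and no mismatch. The partners that shared most words with Tnnt2, such as Dlc1 and Fbxl16 (8 each), were not troponin genes. Actc1 shared most with Actg2 (13 words). The longest run that Tpm1 shared with Tpm2, which encodes beta-tropomyosin, was 37 nt. It is printed for both genes because a read lying wholly inside the longest lower-case run matches both partners equally. The letters are coding sequence of the GRCm38 annotation, 5′ to 3′, with capitals where the partners differ, and they begin at the start codon, ahead of which the shared run goes on.
Tpm1 (chromosome 9): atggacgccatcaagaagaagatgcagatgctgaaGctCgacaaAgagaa
Tpm2 (chromosome 4): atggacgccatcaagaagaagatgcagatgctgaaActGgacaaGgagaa
Introns and copies of these genes outside annotated transcripts are not covered by these shares. No genome of the mm9 build was used here, so neither exons nor the sequence at a crosslink position is given below, and positions are named by coordinate and by distance from the 5′ end of the interval.

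SRSF3-GFP cDNAs were abundant on all 3 transcripts. Tnnt2 held 1495 cDNAs in replicate 1 and 4058 in replicate 2, Tpm1 held 1002 and 2738, and Actc1 held 509 and 1454. Scaled to 1000000 cDNAs of the library (CPM), Tnnt2 had 1817 ± 23.2 CPM, Tpm1 had 1222 ± 9.85 CPM and Actc1 had 635 ± 14.8 CPM (SD, n = 2). Together the genes took 0.369% of replicate 1 and 0.366% of replicate 2. These counts also follow how much of each RNA the cells held, which the tracks do not give.

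Per kb of interval the order was different, with Tpm1 the lowest. In CPM per kb, Tnnt2 had 101.9 in replicate 1 and 100.03 in replicate 2, Actc1 had 89.2 and 92.2, and Tpm1 had 43.9 and 43.4. The density of Tnnt2 was 2.32 times that of Tpm1 in replicate 1 (95% counting interval 2.14 to 2.52) and 2.31 times in replicate 2 (2.20 to 2.42). Actc1 stood at 2.03 times Tpm1 in replicate 1 (1.82 to 2.26) and at 2.12 times in replicate 2 (1.99 to 2.26). Tnnt2 and Actc1 were close, at ratios of 1.14 (1.03 to 1.27) and 1.09 (1.02 to 1.15). Over the span of the middle 95% of cDNAs, which drops the bare margins of the intervals, that order turned round in the mean. Tnnt2 had 113.1 ± 0.175 CPM per kb there and Actc1 had 115.5 ± 4.66 (SD, n = 2). Replicate 2 turned, at 113.0 in Tnnt2 against 118.8 in Actc1, while replicate 1 kept Tnnt2 ahead, at 113.3 against 112.2. The order of these neighbours therefore depended on where the intervals were set and on the replicate. Tpm1 stayed lowest, at 46.3 ± 0.0587 CPM per kb (SD, n = 2). With 2 libraries a permutation test over samples was not used for these densities, and the intervals cover counting error only.

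Against the rest of the genome these densities were high. Among the 124719 windows of 10 kb per strand with a cDNA in replicate 1, 12 were denser than Tnnt2, 14 were denser than Actc1 and 36 were denser than Tpm1. In replicate 2 it was 12, 13 and 28 of 212442. Windows over the genes themselves count among these. The comparison is between unlike stretches. The intervals were placed on genes, while the windows lie on a fixed grid that can split a gene or add bare sequence to it. This favours the rank of the intervals, most of all for Actc1, whose interval is shorter than a window. The median window of replicate 1 held 0.245 CPM per kb and that of replicate 2 held 0.0887, and the level of the 99th percentile was 6.38 and 4.75 CPM per kb. A window needed only 1 cDNA to enter, and both medians correspond to fewer than 3 cDNAs per window. Medians at so few cDNAs scale with library depth, so their gap cannot show whether background differed, which was not tested. This is a description of where the genes lie in these libraries and carries no test.

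The signal lay almost wholly on the strand of the genes and ended near the edges of the intervals, except at the 3′ side of Tnnt2. On the gene's own strand lay 99.9% of the Tnnt2 cDNAs in both replicates, with 2 and 4 cDNAs on the opposite strand. Tpm1 had 99.6% and 99.7% on its strand, with 4 and 9 opposite cDNAs, and Actc1 had 100% and 99.8%, with 0 and 3. The 0 allows up to 3.68 CPM.

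The 5′ edge was sharp in every gene. Among positions inside the intervals, the first with at least 2 cDNAs over both replicates lay 968 nt from the 5′ end in Tnnt2, 981 nt in Tpm1 and 950 nt in Actc1. In the 5 kb upstream there was none such in Tnnt2 or Tpm1 and 1 in Actc1, 3561 nt ahead of its interval. Stretches with no cDNA of either replicate lay ahead of the edges, 644 nt long in Tnnt2 (chr1:137732241-137732884), 949 nt in Tpm1, from the 5′ end of its interval on, and 567 nt in Actc1 (chr2:113878578-113879144). In the 5 kb upstream, Tnnt2 had 1 cDNA in replicate 1 and 7 in replicate 2, or 0.245 and 0.621 CPM per kb. Actc1 had 2 cDNAs in each replicate, or 0.491 and 0.177 CPM per kb. Tpm1 had no cDNA there in either replicate, which allows up to 0.736 and 0.266 CPM per kb.

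At the 3′ side Actc1 and Tpm1 fell to low levels near the ends of their intervals. Inside the intervals, the last position with at least 2 cDNAs lay 313 nt before the end in Actc1 and 1055 nt before it in Tpm1. Beyond the end, the next 5 kb held 0 such positions in Actc1 and 2 in Tpm1, the farther of them 1005 nt past the interval, against 14 in Tnnt2. Counted inside the intervals only, which bounds them, the spans from first to last such position were 5738 nt in Actc1 and 25965 nt in Tpm1, beside annotated gene lengths of 6267 and 26817 nt in GRCm38. With 5 kb added on either side the spans were 10249 and 28025 nt. In the 5 kb downstream, Actc1 had 1.47 (replicate 1) and 0.887 (replicate 2) CPM per kb, 1.65% and 0.963% of the density inside. Tpm1 had 1.72 and 2.22 CPM per kb, 3.91% and 5.11% of the density inside.

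Tnnt2 differed from the others here. Its 5 kb downstream held 61 cDNAs in replicate 1 and 178 in replicate 2, which is 15.0 CPM per kb (95% counting interval 11.4 to 19.2) and 15.8 CPM per kb (13.6 to 18.3), or 14.7% and 15.8% of the density inside. Those intervals do not overlap with those of Tpm1 (0.690 to 3.54 and 1.44 to 3.28) or Actc1 (0.540 to 3.20 and 0.426 to 1.63). Counted in kb from the 5′ end, the signal stood at 86.7 ± 2.20 CPM in the 17th kb and at 23.5 ± 4.96 in the 18th, the last of the interval. Beyond the interval it stayed at 13.9 ± 2.31, 16.1 ± 1.47, 16.1 ± 3.28 and 22.0 ± 3.38 CPM over the next 4 kb, with 8.78 ± 2.01 CPM in the 23rd kb and 2.22 ± 3.14 CPM in the 24th (SD, n = 2). Within the interval the recurrent positions of Tnnt2 already spanned 16695 nt, beside an annotated length of 15907 nt in GRCm38. The next annotated gene downstream on that strand in GRCm38 is the processed pseudogene Gm28883. Where these cDNAs came from was not tested.

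**Figure D1:**
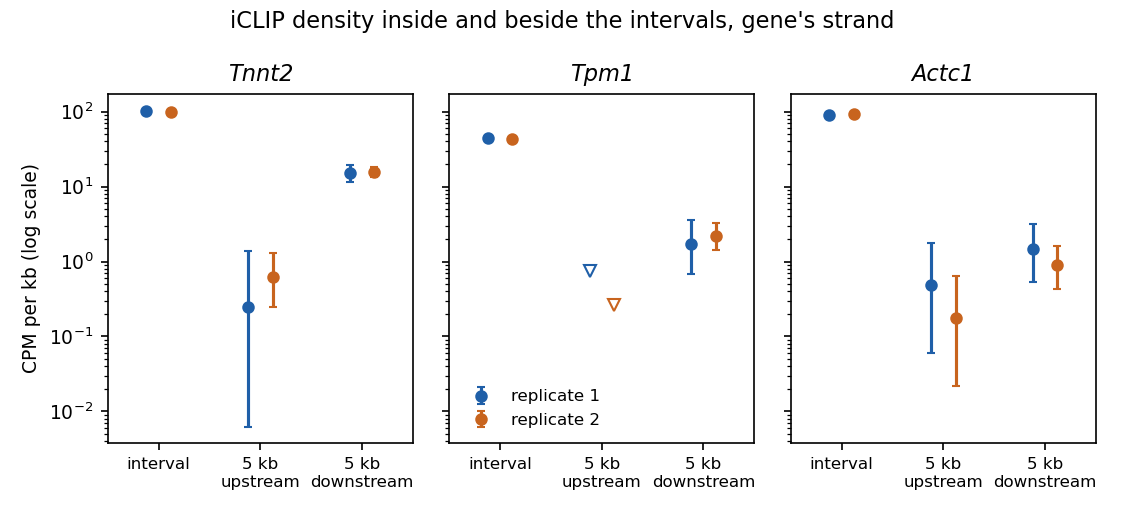
Density of cDNAs on the gene's strand (CPM per kb, log scale) inside each interval, in the 5 kb upstream and in the 5 kb downstream, for replicate 1 and replicate 2, with 95% counting intervals; open triangles mark the limit of a count of 0. The downstream flank of Tnnt2 stands at 15.0 and 15.8 CPM per kb, above those of Tpm1 (1.72 and 2.22) and Actc1 (1.47 and 0.887).

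Along Tnnt2 the signal was spread over the whole gene and heaped up near its 3′ end. The 15th kb from the 5′ end (chr1:137746000-137746999) held 335 cDNAs in replicate 1 and 993 in replicate 2, which was 22.4% and 24.5% of the gene. Its 426 ± 21.1 CPM (SD, n = 2) were 4.84 times the median kb of the gene, 87.9 CPM. The last 25% of the interval took 41.8% of the cDNAs of replicate 1 (95% Wilson interval 39.3% to 44.3%) and 42.7% of those of replicate 2 (41.1% to 44.2%), while each earlier stretch of that length took 18.1% to 20.8%. Outside the 15th kb and the bare first kb, single kb ranged from 23.5 to 149.7 CPM, with the higher values in the 16th kb (149.7 ± 17.2 CPM) and the 10th kb (148.9 ± 14.8 CPM).

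The 5 stretches of 100 nt with the most cDNAs in the lower replicate all lay between 14.0 and 14.8 kb from the 5′ end of Tnnt2. The first of them (chr1:137746000-137746099) had 50 cDNAs in replicate 1 and 140 in replicate 2, or 61.3 and 62.1 CPM, on 39 and 57 different nucleotides. The next (chr1:137746300-137746399) had 56.4 and 53.7 CPM, and a stretch 300 nt further on (chr1:137746600-137746699) had 71.1 and 50.6 CPM. No single nucleotide carried the peak. The strongest position of the gene lay elsewhere, at chr1:137744562, with 7 cDNAs in replicate 1 and 26 in replicate 2, amounting to 0.468% and 0.641% of the gene's cDNAs. The next positions, 137746323 and 137748703, each held 6 and 13 cDNAs.

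**Figure D2:**
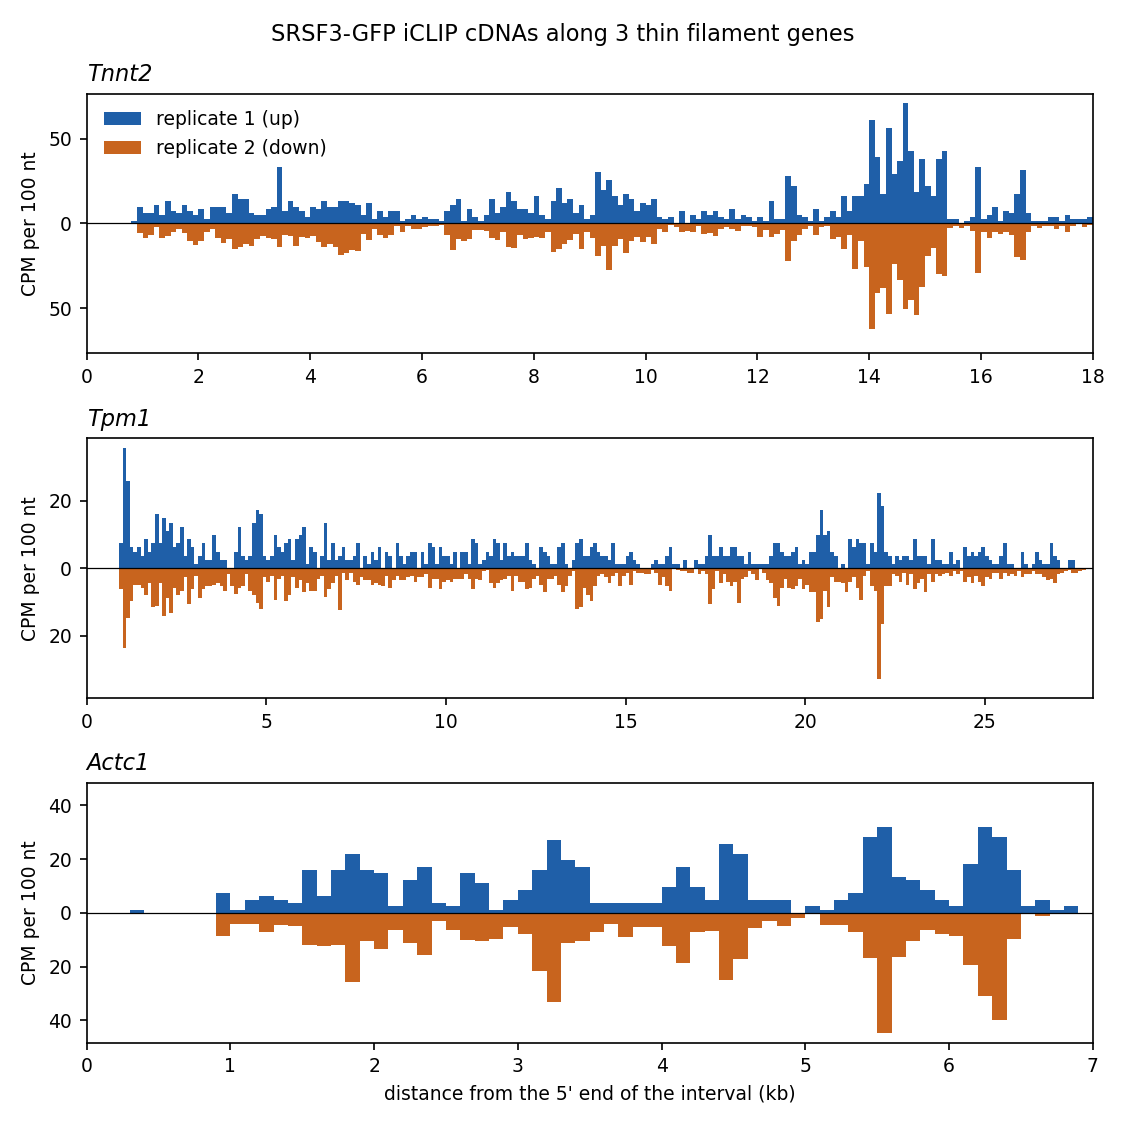
cDNAs per 100 nt (CPM) from the 5′ to the 3′ end of each interval, replicate 1 upward and replicate 2 downward, with a separate scale for each gene. Tnnt2 has its highest stretches between 14.0 and 14.8 kb, Tpm1 its highest at 1.0 and 22.0 kb, and Actc1 a row of separate maxima.

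Tpm1 had a lower and flatter profile, with its most cDNAs at the 5′ end. The 2nd kb (chr9:66896001-66897000) held 97 cDNAs in replicate 1 and 222 in replicate 2, and its 108.7 ± 14.5 CPM (SD, n = 2) were 2.80 times the median kb of the gene, 38.9 CPM. The first 25% of the interval took 36.5% of the cDNAs of replicate 1 (Wilson 95% interval 33.6% to 39.6%) and 33.2% of those of replicate 2 (31.5% to 35.0%). The last 25% took 20.5% and 19.7%.

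A second maximum lay in the part towards the 3′ end of Tpm1. The 21st and 23rd kb held 73.2 ± 8.15 and 71.0 ± 6.82 CPM, against 18.6 ± 1.98 and 19.0 ± 0.798 CPM in the 16th and 17th kb (SD, n = 2). The strongest 100 nt of the gene began 1.0 kb from the 5′ end (chr9:66896901-66897000), with 29 cDNAs in replicate 1 and 53 in replicate 2, or 35.6 and 23.5 CPM. The stretch 22.0 kb from the 5′ end (chr9:66875901-66876000) came next, with 18 and 74 cDNAs, or 22.1 and 32.8 CPM. It holds the strongest position of the gene, chr9:66875959, with 2 and 8 cDNAs, and its neighbour 66875960, with 1 and 5. Most Tpm1 positions were seen a single time, 93.5% in replicate 1 and 86.7% in replicate 2, against 85.3% and 75.3% in Tnnt2.

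Actc1, the shortest of the 3 genes, varied less from kb to kb than the others. After the first kb, which is mostly ahead of the 5′ edge and held 8.51 ± 0.109 CPM, every kb held between 88.0 and 117.3 CPM, and the highest, the 6th, was 1.13 times the median of 103.4 CPM. Cut into 4 equal lengths from the 5′ end, the interval was less even: they took 9.43%, 35.2%, 20.4% and 35.0% of the cDNAs in replicate 1 and 10.1%, 33.6%, 21.6% and 34.7% in replicate 2. The drop at the third of them, with 95% Wilson bounds of 17.2% and 24.2% in replicate 1 and 19.6% and 23.8% in replicate 2, lay below the bounds of both its neighbours. At the scale of 100 nt the signal was uneven too. The 5 strongest stretches began 5.5, 6.2, 6.3, 3.2 and 4.4 kb from the 5′ end. The first of these (chr2:113873901-113874000) had 26 cDNAs in replicate 1 and 101 in replicate 2, or 31.9 and 44.8 CPM, which is 5.11% and 6.95% of the gene. The stretch 6.2 kb along had 31.9 CPM in replicate 1 and 31.1 in replicate 2, and its neighbour at 6.3 kb had 28.2 and 39.9 CPM.

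The strongest nucleotide of Actc1 took a larger share of its gene than the top position of Tnnt2 or Tpm1 did. Position chr2:113873983 held 8 cDNAs in replicate 1 and 26 in replicate 2, amounting to 1.57% and 1.79% of the gene's cDNAs. In CPM it was close to the top position of Tnnt2, at 9.81 and 11.5 against 8.58 and 11.5. The larger share thus goes with the fewer cDNAs of Actc1 as a whole. The next nucleotide upstream, 113873984, held 2 and 7 cDNAs, and the pair 113873296 and 113873297 held 2 and 9 and 2 and 6. Position 113875041, with 6 cDNAs in replicate 1 and 5 in replicate 2, stood at 7.36 and 2.22 CPM. These positions were ranked on the same cDNAs, so their values are a description.

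How concentrated the signal was could be read in the replicate that did not choose the bins. The densest 10% of 100 nt bins of Tnnt2 (18 of 180), ranked in replicate 2, held 35.5% of the replicate 1 cDNAs, and ranked in replicate 1 they held 32.2% of those of replicate 2. For Actc1 (7 of 70 bins) the shares were 29.3% and 33.6%, and for Tpm1 (28 of 280) 27.0% and 25.5%. Across the 100 nt bins, log2(cDNAs + 1) correlated between the replicates with Pearson r = 0.855 in Tnnt2 (n = 180 bins), 0.881 in Actc1 (n = 70) and 0.680 in Tpm1 (n = 280), and across 500 nt bins with r = 0.979 (n = 36), 0.951 (n = 14) and 0.920 (n = 56). Bins of a gene share their library, their transcript and its margins, and are not independent. Tpm1 also had the fewest cDNAs per bin, with a median of 3 in replicate 1 and 8 in replicate 2, against 6 and 17 in Tnnt2.

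Exact nucleotides recurred between the replicates more often the more cDNAs they held. Tnnt2 positions that had 1 cDNA in replicate 1 reappeared in replicate 2 in 36.5% of cases (95% Wilson bounds 33.7% and 39.5%). Those that had 2 cDNAs did so in 59.2% (50.9% to 66.9%), and 34 of the 40 with 3 or more did. Replicate 2 listed 15.6% of all nucleotides of that interval. In Actc1, where replicate 2 listed 14.9% of the nucleotides, 37.7% of the positions with 1 cDNA recurred (33.1% to 42.6%) and 23 of the 39 with 2 did. In Tpm1, where replicate 2 listed 8.37%, it was 20.8% (18.2% to 23.6%) and 50.9% (38.3% to 63.4%). As a share of each list, positions common to both replicates were 40.7% (replicate 1) and 18.0% (replicate 2) in Tnnt2, 40.3% and 17.1% in Actc1, and 22.8% and 9.13% in Tpm1. How much uneven coverage within a gene adds to these shares was not tested.

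Whether the replicates differed on these genes was asked of the whole genome at once. Counts were set against the share of cDNAs each library held (exact binomial test, two-sided), with Benjamini-Hochberg adjustment over 13920 windows of 10 kb with at least 50 cDNAs and the 3 intervals. At a 5% false discovery rate 0.0934% of the windows were called, and 0 of the 3 genes, of which 0 had an unadjusted p under 0.05. The log2 ratio of replicate 1 to replicate 2 was 0.03 for Tnnt2 (95% interval -0.06 to 0.11, unadjusted p = 0.554, exact binomial test), with 1833 CPM in replicate 1 and 1801 in replicate 2. It was 0.02 for Tpm1 (-0.09 to 0.12, unadjusted p = 0.753, exact binomial test), with 1229 and 1215 CPM, and -0.05 for Actc1 (-0.20 to 0.10, unadjusted p = 0.540, exact binomial test), with 624 and 645 CPM. The adjusted p was 1 for each gene. With every listed position counted a single time, Tnnt2 was called among the 3 genes, at a log2 ratio of 0.27 (adjusted p = 8.74e-05, exact binomial test), where 0.173% of 13325 windows were called and 0.165% as higher in replicate 1, and the sign of Actc1 turned, at 0.21 (adjusted p = 0.691, exact binomial test). The intervals give the size of difference that this depth leaves possible, and they do not show that the replicates were alike.

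The profiles along the genes were compared in the same way. Of the 1660 bins of 500 nt on either strand with at least 50 cDNAs over the genome, 1.51% were called between the replicates, and of the 77 that lie on the 3 genes 0 were called, with 0 at an unadjusted p under 0.05 (exact binomial test). Tnnt2 had 29 of these bins, with log2 ratios of replicate 1 to replicate 2 from -0.43 to 0.47, Tpm1 had 37, from -0.70 to 0.76, and Actc1 had 11, from -0.73 to 0.41. In 36 of the 77 the ratio was above 0. With bins of 250 nt, 0 of the 75 on the genes were called and 3 had an unadjusted p under 0.05 (exact binomial test), where 2.97% of all such bins were called. With bins of 1000 nt it was 0 of 49, with 0 under 0.05 (exact binomial test), where 0.735% of all were called, and with 500 nt bins of at least 20 cDNAs 0 of 99, with 0 under 0.05, where 0.273% were. The smallest adjusted p was 0.605, in the bin at the 5′ edge of Tpm1 with 64 cDNAs in replicate 1 and 130 in replicate 2 (exact binomial test, Benjamini-Hochberg adjustment).

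**Figure D3:**
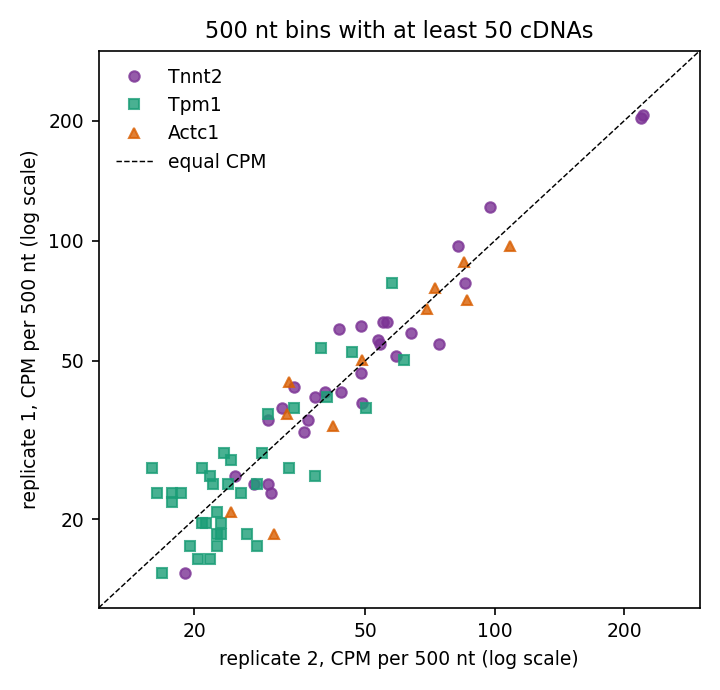
The 77 bins of 500 nt on Tnnt2, Tpm1 and Actc1 with at least 50 cDNAs, by CPM in replicate 1 (vertical, log scale) and replicate 2 (horizontal, log scale), with the line of equal CPM. Bins scatter on both sides of the line, 36 of 77 above it, and the highest pair belongs to the 3′ peak of Tnnt2.

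The merged track was the sum of 5 libraries per its header, and what it held beyond the replicates, 1138453 cDNAs of 3 libraries that the labels do not describe, was lower on all 3 genes. Tnnt2 had 1161 cDNAs and 1019.8 CPM in these other libraries, against 1809 CPM in both replicates together, a log2 ratio of -0.83 (95% interval -0.92 to -0.74, adjusted p = 3.54e-76, exact binomial test). Tpm1 had 792 cDNAs and 696 CPM there, against 1219 CPM in the replicates, a log2 ratio of -0.81 (-0.92 to -0.70, adjusted p = 2.56e-49, exact binomial test). Actc1 had 375 cDNAs and 329 CPM, against 640 CPM in the replicates, a log2 ratio of -0.96 (-1.12 to -0.80, adjusted p = 3.57e-34, exact binomial test). These tests were two-sided, with Benjamini-Hochberg adjustment over 21841 windows and the 3 intervals. They compare these libraries and cover counting error only.

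Such differences were common over the genome: 27.9% of the windows were called, and 13.4% were called as lower in the other libraries. Of all windows tested, 16.3% had a log2 ratio below that of Tnnt2, 17.1% below that of Tpm1 and 12.2% below that of Actc1, and the median window stood at -0.12. The labels do not describe the other libraries. Differences in their cells, in the level of these RNAs or in the precipitation therefore cannot be told apart, and the cause was not tested.

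The order of the genes and the shape of Tnnt2 were similar in the other libraries. Tnnt2 had 2.28 times the density of Tpm1 there (95% counting interval 2.08 to 2.499), and Actc1 had 1.89 times (1.67 to 2.14). The pair whose order depended on where the intervals were set, Tnnt2 over Actc1, stood at 1.20 (1.07 to 1.36) over the whole intervals. The 15th kb of Tnnt2 took 27.4% of its cDNAs in the other libraries, against 22.4% and 24.5% in replicates 1 and 2. Across the 1 kb bins, log2(cDNAs + 1) in the other libraries correlated with that in both replicates together with Pearson r = 0.960 in Tnnt2 (n = 18 bins) and 0.892 in Tpm1 (n = 28). For Actc1 (n = 7 bins) r was 0.985 and Spearman's rho 0.396, with the bare first kb far below the other 6.

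**Figure D4:**
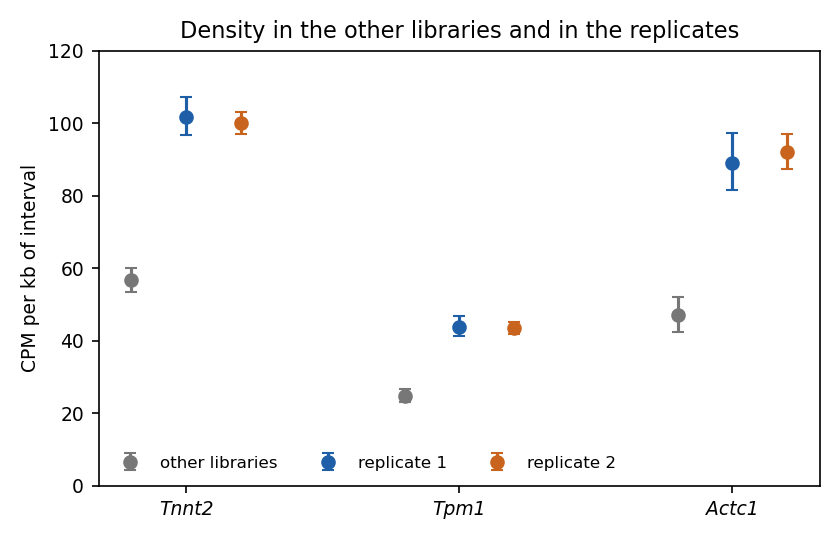
cDNA density over each interval (CPM per kb) in the other libraries of the merged track, in replicate 1 and in replicate 2, with 95% counting intervals. On each gene the other libraries lie below both replicates, at 56.7 CPM per kb in Tnnt2, 24.8 in Tpm1 and 47.0 in Actc1.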

How the data were processed

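The authors deposited iCLIP tracks in mm9 in which each line holds a signed score for a single nucleotide: its size is the number of cDNAs and its sign marks the strand, with no scaling to library size. Ensembl 59 was the annotation, per the file headers, and Bowtie 0.10.1 is named in the submitters' processing notes. The treatment of duplicate cDNAs and of reads with several matches was not given in those sources. Replicates are numbered by their sample labels.

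cDNAs on the gene's strand were summed per interval, window or bin and divided by the library total. Names, lengths and transcript sequences came from GENCODE M21 on GRCm38, and no coordinate was converted between builds. The other thin filament genes listed for this work were therefore not located, nor were marker genes of other cell types, so the labelled cell type was not checked beyond the 3 genes. Windows and bins needed at least 50 cDNAs. Intervals are exact Poisson for densities, exact binomial for ratios and Wilson for shares, all at 95%, a count of 0 allows 3 cDNAs, and all cover counting error only. Named stretches and positions are the 5 per gene with the highest CPM in the lower replicate. The replicate test of 10 kb windows was checked on simulated Poisson counts, which hold no spread between libraries beyond counting error. The tests of bins and of the other libraries were not simulated. The members, lists and tests were chosen with earlier results of these data known. Python 3.11.15, numpy 2.4.6, pandas 2.3.3 and scipy 1.17.1 were used.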

Additional observations from a re-analysis of the deposited data

Results flagged for a closer look

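The merged track held signal on all 3 genes beyond the labelled replicates, from libraries that the labels do not describe. This signal, outside the data used for the replicate comparison and above the 3 cDNAs that a count of 0 allows, came to 1161 cDNAs on Tnnt2, 792 on Tpm1 and 375 on Actc1.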

How the results depend on the processing

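Counting each listed position a single time gave 1477.5, 1169 and 536 positions per 1000000 listed in Tnnt2, Tpm1 and Actc1, and it moved the log2 ratio of replicate 1 to replicate 2 to 0.27 in Tnnt2 (adjusted p = 8.74e-05, exact binomial test) and to 0.21 in Actc1 (adjusted p = 0.691), a change of sign. The cause was not tested, and a Tnnt2 position held 1.20 cDNAs on average in replicate 1 and 1.45 in replicate 2. Over the middle 95% of cDNAs the genes had 1720, 1158 and 599.6 CPM, and the log2 ratio of Tpm1 was -0.0026, also a change of sign. With totals that left out the mitochondrial genome and the 10 strongest windows they had 1898, 1276 and 663 CPM, without their 5 strongest positions 1783, 1212 and 610 CPM, and in the merged track 1596, 1077 and 556 CPM. The replicates alone gave 1801 to 1833, 1215 to 1229 and 624 to 645 CPM. Averaged over the replicates, the ratio of Tnnt2 to Actc1 in density, 1.11, was 0.980 over the middle 95% and 0.9498 without each gene's densest kb. Both settings were tried after the values were seen. The densest 10% of bins held 36.2% in Tnnt2 with 50 nt bins, and 25.1% in Tpm1 and 26.9% in Actc1 with 200 nt bins. The other libraries were lower against either replicate alone, by log2 ratios of -0.85 to -0.82, -0.82 to -0.80 and -0.97 to -0.92. In all, 39 of 62 alternative values kept their side and direction or moved by less than the replicate spread. Part of these could not come out otherwise. Leaving out a replicate always moves a mean of 2 by less than their SD. The minimum count of windows does not enter the log2 ratio of a gene. The tally is therefore a description and no measure of robustness. No paired analysis was possible because the groups that share replicate numbers, both of hearts, were not analysed here, and the other libraries of the merged track carry no replicate number. Depth limits replicate 1 most, where 38 of 280 bins of 100 nt in Tpm1 held no cDNA, against 14 in replicate 2. Of the 38, 11 were also empty in replicate 2, the bare margins of the interval among them.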

Other observations

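The neighbourhood of Actc1 carried signal on the opposite strand. The 5 kb upstream of its interval held 20 plus-strand cDNAs in replicate 1 and 28 in replicate 2, or 4.91 and 2.48 CPM per kb. On the strand of Actc1 there were 2 cDNAs in each replicate, or 0.491 and 0.177 CPM per kb. These lie below the 0.736 and 0.266 CPM per kb that a count of 0 allows. In GRCm38 the nearest annotated gene on that side is C130080G10Rik, an antisense RNA on the plus strand. Upstream of Tpm1, 5 and 9 plus-strand cDNAs lay where its own strand had none, and the nearest annotated gene on that side in GRCm38 is Gm10646, a lincRNA on the plus strand. Neither neighbour was placed in mm9, so whether these plus-strand cDNAs lie on them was not tested.

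The strongest single positions of Tnnt2 and Actc1 were weak in the other libraries. Position chr1:137744562 held 1 cDNA there, against 7 and 26 in the replicates, and chr2:113873983 also held 1, against 8 and 26. Both were picked for their replicate values, so these are given without a test. Between the first and last cDNA of Tpm1 in the replicates, so without its bare margins, the longest stretch with none of theirs was 143 nt (chr9:66879154-66879296), where the other libraries had none either.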
